A study of Mus musculus with 4 samples.

Results

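Ileum was compared with jejunum in mice carrying the wild-type form of Dao, the gene for D-amino acid oxidase, an enzyme that breaks down D-amino acids. The comparison rests on 2 of the 4 arrays of the study, 1 of jejunum and 1 of ileum. It covers the 20730 genes whose probe was well above background on both of them, of 37008 gene names on the array. Of the measured names, 14059 were ordinary gene symbols and the others were clone names or predicted models.

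Each array held RNA mixed from 5 mice of strain C57BL/6J aged 9 weeks, all Tcrbd-/-, so that every group lacked T cells bearing a receptor. The groups compared were Tcrbd-/-, DAOwt/wt jejunum and Tcrbd-/-, DAOwt/wt ileum. The 2 further arrays held the same tissues of Tcrbd-/-, DAOG181R/G181R mice, in which Dao carries the G181R form on both copies, and their difference is given beside the wild-type one. The tissue was epithelium scraped off mechanically, and 100 ng of RNA was labelled, with integrity numbers over 9. With 1 array of pooled RNA per group there is no measure of the spread between mice, and no p-value is given.

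The small intestine is divided along its length by function. The jejunum is known as the main site where sugars, fats and many micronutrients are absorbed, while the ileum recovers bile acids and vitamin B12 and releases hormones that slow the gut. Transcription factors such as GATA4 are known to maintain the jejunal set of genes, and the bile acid receptor FXR drives a set of ileal genes.

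Values are normalised signals in arbitrary units, scaled so that the arrays share one 75th percentile, and differences are log2 ileum minus jejunum. A signal tells nothing about one gene's level against another's, since probes differ in brightness. A fold of 2 was used as a rule of size. Between 57.4% and 60.4% of the 56605 probes were well above background on each of the 4 arrays, and no spot was saturated. Probes printed 10 times on each array gave a median SD of 0.06 for a log2 difference between the wild-type arrays, a spread that leaves out the variation of mice, pools and labelling. All 12 markers of enterocytes, the absorptive cells, were well above background in both tissues: Krt20 read 96790 in jejunum and 75650 in ileum, Vil1 61950 and 44020, and Fabp2 110700 and 89460. Over all 12 the log2 differences ran from -5.26 to 1.52, with 5 above 0 and 7 below.

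In wild-type mice 1533 genes were higher in ileum by 2-fold or more, 7.4% of those measured, and 1892 were lower by as much, 9.13%. At 4-fold these were 331 and 478 genes, and at 32-fold 23 and 34. The median gene differed by -0.05, and 64.2% of genes lay within 1.5-fold. A further 1410 genes were well above background in ileum only and 888 in jejunum only. Of these, 368 and 415 differed by at least 2-fold, and each such fold is given as a lower bound against the background of the other array. Of 944 genes at least 2-fold apart with several measured probes, 837 had all probes on the same side and 527 had all probes at least 2-fold apart the same way.

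**Figure D1:**
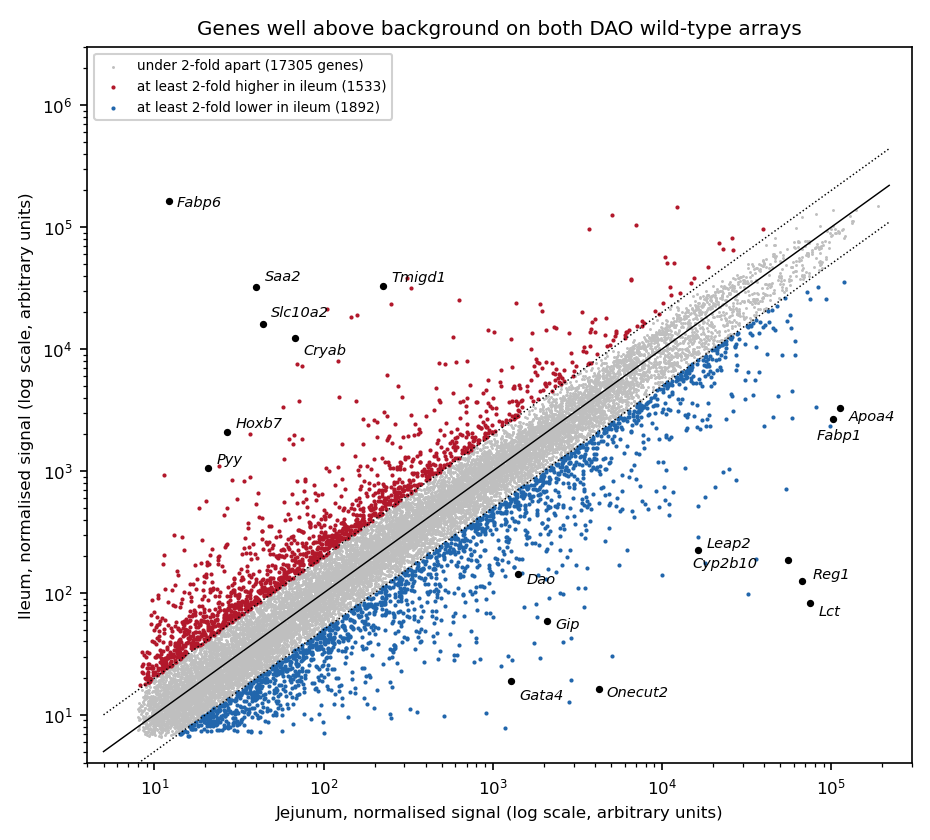
Normalised signal in jejunum (horizontal axis, log scale, arbitrary units) and in ileum (vertical axis, log scale, arbitrary units) of the DAO wild-type mice, 1 point per measured gene. The solid line marks equal signal and the dotted lines 2-fold; red points (1533) are at least 2-fold higher in ileum, blue points (1892) at least 2-fold lower, and Fabp6 and Lct lie farthest from the line.

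The gene farthest on the ileal side was Fabp6, the ileal bile acid binding protein, and on the jejunal side Lct, the brush border lactase. Fabp6 read 12.1 in wild-type jejunum and 163600 in wild-type ileum, a log2 difference of 13.72, with 17.9 and 156600 in the G181R mice. The 12.1 lay near the lowest signal well above background on the wild-type jejunum array (7.95), so this difference is imprecise in size. Lct read 75200 in jejunum and 82.6 in ileum, 909.9-fold lower in ileum (log2 -9.83), with 54580 and 128.9 in G181R. For both genes the jejunum and ileum signals of the 2 genotypes lay far apart with no overlap. Dao itself read 1413 in wild-type jejunum and 143.1 in wild-type ileum, 9.88-fold lower in ileum, and a second probe gave a log2 difference of -3.40. The probe positions are in mm9: Fabp6 at chr11:43410973-43411032, Lct at chr1:130181389-130181448 and Dao at chr5:114475410-114475469. The first 30 of the 60 bases of the probes that read these genes are shown because each value above rests on 1 such oligonucleotide, all in lower case.
Fabp6: aaggtggtggcagagttccccaactatcac
Lct: ctcatttcagggtttgatggtagactcaag
Dao: aggaggagcactccactggtcaacattatt

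Of the 12 genes on the bile acid and vitamin B12 uptake list 10 were measured, 6 at least 2-fold higher in ileum and 1 lower, with a median of 1.83 (0.98 in G181R, with 5 higher and 1 lower). Slc10a2, the transporter that takes bile acids up from the lumen, read 43.7 in wild-type jejunum and 16200 in ileum (49.0 and 12530 in G181R), a log2 difference of 8.53, and its probes lay between 8.53 and 8.70. Both ileum signals lay far above both jejunum signals. Slc51a and Slc51b, the subunits of the transporter that passes bile acids on to the blood, read 21670 and 3744 in wild-type jejunum and 74380 and 13860 in ileum, 3.43-fold and 3.70-fold higher in ileum. Nr1h4, which encodes FXR, read 1885 in jejunum and 7615 in ileum (log2 2.01).

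Fgf15, the hormone that FXR induces and that restrains bile acid synthesis in the liver, was well above background in ileum only, at 3.91 in jejunum and 292 in ileum, at least 36.7-fold higher. Nr0b2, which encodes the repressor SHP, went the other way: it read 29.9 in jejunum and was not well above background in ileum, at least 4.36-fold lower there. Cubn, the receptor for the vitamin B12 complex, read 4020 in wild-type jejunum and 17600 in wild-type ileum (log2 2.13), but 1796 and 2863 in G181R (log2 0.67). Its partner Amn differed by 0.05, the lysosomal B12 transporter Lmbrd1 by -0.38, the plasma carrier Tcn2 by -0.44, and Abcc3, an exporter of conjugates, by -1.01.

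Fat absorption showed the opposite direction across the whole list. All 24 genes were measured, all 24 lay below 0, 18 were at least 2-fold lower in ileum and 0 higher, with a median of -1.47. Fabp1, the fatty acid carrier of the enterocyte, read 102400 in wild-type jejunum and 2668 in ileum (97060 and 1715 in G181R), 38.4-fold lower. The apolipoproteins Apoa4 (113300 and 3266 in wild-type), Apoc2 (98800 and 2318) and Apoc3 (58270 and 2736) differed by -5.12, -5.41 and -4.41 on the log2 scale. In every one of these cases both jejunum arrays were above both ileum arrays.

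Cd36, a fatty acid receptor, read 838.3 in jejunum and 28.5 in ileum (log2 -4.88), and Scarb1, a lipoprotein and sterol receptor, 253 and 34.2 (log2 -2.89). The enzymes that rebuild fat and load it onto particles differed less. Mogat2, which makes diglyceride, was at -1.04, Soat2, which esterifies cholesterol, at -2.25, Mttp, which loads lipid onto apolipoprotein B, at -1.90, and Apoa1 at -1.29. Fabp2, a second fatty acid carrier, was at -0.31.

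Digestive enzymes of the brush border were split. Of 27 list members 24 were measured, 3 at least 2-fold higher in ileum and 8 lower, with a median of -0.51 (-0.33 with quantile normalisation). Beside lactase, those lower included trehalase Treh (18430 and 2665, log2 -2.79), the peptidase Ace (4839 and 529.2, -3.19), the ceramidase Asah2 (3187 and 110.5, -4.85), the sphingomyelinase Enpp7 (-2.63), Enpp3, a nucleotide pyrophosphatase (17880 and 177.6, -6.65), and the phosphatase Alpi (-2.44). Tmprss15, the enteropeptidase that activates trypsin, read 3157 in wild-type jejunum and was not well above background in ileum (1.41), at least 481.1-fold lower. The members higher in ileum were all peptidases: the metalloprotease Mep1a (6570 and 36540, log2 2.48), Naaladl1 (666.3 and 3741, 2.49) and Xpnpep2 (3785 and 14620, 1.95). Sucrase-isomaltase Sis was at -1.06, and aminopeptidase Anpep at -0.23.

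Sugar transport and metabolism had 0 of 16 measured genes at least 2-fold higher in ileum and 12 lower, with a median of -1.95. Slc2a5, the fructose transporter, read 9189 in jejunum and 687.7 in ileum, 13.4-fold lower. Slc2a2, the transporter that releases sugars to the blood, read 660 in jejunum and was not well above background in ileum (5.00), at least 100.6-fold lower. Slc5a1, the sodium-glucose transporter, was within 2-fold (2963 and 1546, log2 -0.94). Other members were Slc2a7 (-4.59), Slc5a4b (-4.31), Slc5a4a (-3.90) and ketohexokinase Khk, the first enzyme of fructose breakdown (-2.30). The gluconeogenic enzymes Pck1 and G6pc read 10350 and 3464 in jejunum and 573 and 523 in ileum (log2 -4.18 and -2.73).

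**Figure D2:**
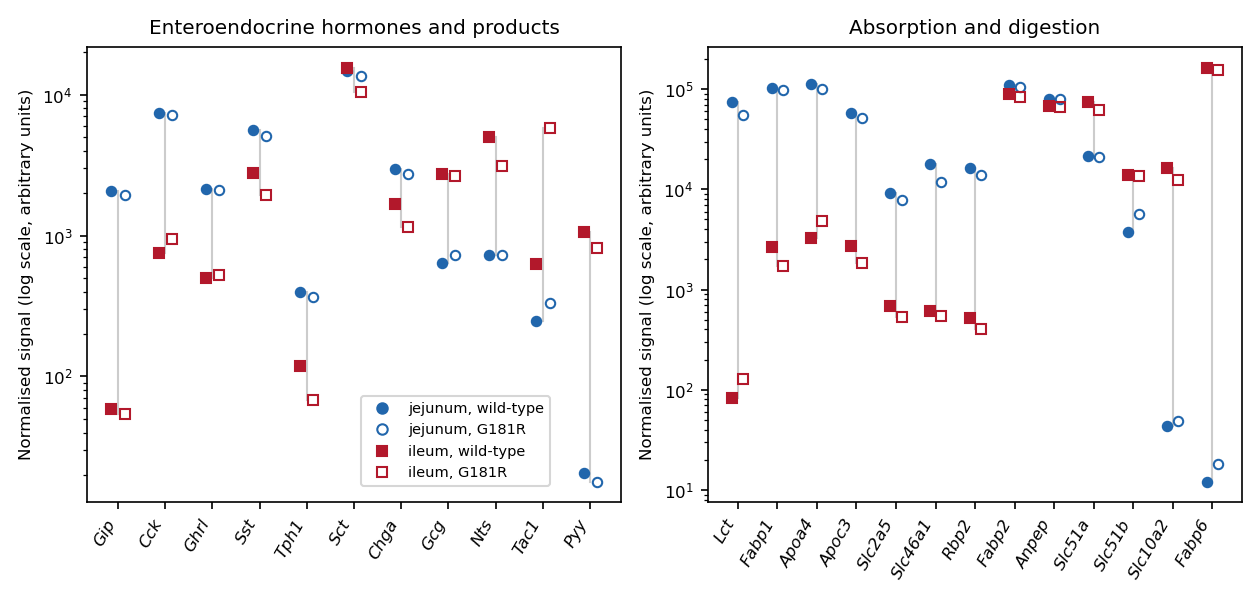
Normalised signal (vertical axes, log scale, arbitrary units) of hormone genes (left) and of genes of absorption and digestion (right) on all 4 arrays; circles are jejunum, squares ileum, filled symbols wild-type and open symbols G181R, with a grey line joining the values of a gene. Gip, Cck, Lct and Fabp1 stand higher in jejunum, and Pyy, Nts, Slc10a2 and Fabp6 higher in ileum, in both genotypes.

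Of 18 measured amino acid and peptide transporters 8 were at least 2-fold lower in ileum and 2 higher, with a median of -0.79 (-0.48 with no background filter). Slc7a8, a subunit that exports neutral amino acids to the blood, read 2510 in jejunum and 99.6 in ileum (log2 -4.66), and Slc16a10, which exports aromatic amino acids, 3692 and 540.4 (-2.77). The peptide transporter Slc15a1 was at -1.25. The glutamate carrier Slc1a1 (253.9 and 1706, log2 2.75) and the glutamine carrier Slc1a5 (197.3 and 772.5, 1.97) were higher in ileum, and Slc6a14, a broad amino acid carrier, was seen in ileum only (191.3), at least 24.1-fold higher.

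Of 23 measured genes of mineral and vitamin uptake, 7 were at least 2-fold higher and 4 lower, with a median of -0.30. The proton-coupled folate transporter Slc46a1 read 18060 in jejunum and 612.7 in ileum, 29.5-fold lower, and the vitamin C transporter Slc23a1 read 355.1 and 10.5 (log2 -5.08). The iron exporter Slc40a1 (294.2 and 1883, log2 2.68), the riboflavin transporter Slc52a3 (1096 and 5397, 2.30), the zinc exporter Slc30a1 (1.79) and the phosphate transporter Slc34a2 (3.41, but -0.45 at its other probe) were higher in ileum.

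Of the retinoid list 21 genes were measured, of which 0 were at least 2-fold higher and 14 lower, with a median of -1.36. Rbp2, which carries retinol inside the enterocyte, read 16310 in jejunum and 520.3 in ileum (14030 and 407.9 in G181R), 31.4-fold lower. The alcohol dehydrogenases Adh1, Adh4 and Adh6a were at -4.81, -7.22 and -4.60, and the retinol dehydrogenase Rdh7 at -5.05. Bco1, which cleaves beta-carotene, was the exception, seen in ileum only (60.2) and at least 7.57-fold higher.

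Enzymes of xenobiotic metabolism made up the list with the lowest median, -2.10, with 31 of 42 measured genes at least 2-fold lower in ileum and 2 higher. Cyp2b10, a cytochrome P450 induced through the receptor CAR, read 55750 in wild-type jejunum and 186.1 in wild-type ileum (37830 and 112.3 in G181R), 299.5-fold lower. Its relative Cyp2b9 read 32400 and 98.7 (log2 -8.36), Ugt2a3, a glucuronosyltransferase, 5042 and 30.3 (-7.38), and Cyp1a1, induced through the aryl hydrocarbon receptor, 904.8 and 10.4 (-6.44). The 2 members higher in ileum were Abcb1a, the efflux pump P-glycoprotein (1690 and 5523, log2 1.71), and Cyp3a44 (118.6 and 307.4, 1.38), and neither was at least 2-fold higher in G181R ileum (0.26 and -1.86). Other Cyp3a genes were lower, with Cyp3a41a at -5.02, Cyp3a16 at -4.50 and Cyp3a11 at -4.19. The probes of Cyp3a25 and Cyp3a57 share 49 of 52 overlapping bases, so these 2 genes cannot be read apart.

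Enzyme families named by symbol, chosen after their values were seen, held the same direction. Of 61 measured cytochromes P450, 35 were at least 2-fold lower in ileum and 4 higher. All 11 measured glucuronosyltransferases of the Ugt family were lower, as were 11 of 18 glutathione transferases, with 0 higher in either. Gstm3 read 39940 in jejunum and 2318 in ileum (log2 -4.11) and Gstm6 3506 and 109.3. Fatty acid oxidation had a median of -0.65, with 10 of 25 measured genes lower and 1 higher, led by Cyp4a31 (-3.34) and the kinase Pdk4, which restrains pyruvate use (-3.28).

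Cholesterol synthesis was higher in ileum as a list, with 14 of 20 measured genes at least 2-fold higher, 0 lower and a median of 1.43. Sqle, squalene epoxidase, read 520.6 in wild-type jejunum and 7519 in wild-type ileum (761.8 and 8663 in G181R), 14.4-fold higher. The enzymes Fdft1, Cyp51, Hmgcs1, Mvd and Lss were higher by 2.91, 2.61, 2.27, 2.23 and 2.16. The G181R median of the list was 1.71.

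Water and ion transport had 9 of 32 measured genes at least 2-fold higher and 9 lower, and a median of -0.16. The water channel Aqp8 read 2834 in wild-type jejunum and 12.8 in ileum (log2 -7.80), and 668.8 and 33.9 in G181R (-4.30). Car2, a carbonic anhydrase, was at -5.35, the glycerol and water channel Aqp3 at -4.72, and the sodium-proton exchanger Slc9a3 at -4.35 (11010 and 538.2). The peptide hormones of salt secretion divided, with guanylin Guca2a higher in ileum (6555 and 37330, log2 2.51) and uroguanylin Guca2b lower (74550 and 25580, -1.54). Among tight junction proteins 1 of 17 measured genes was at least 2-fold higher and 1 lower. Cldn2, a claudin that forms a cation pore, read 171.5 in jejunum and 2690 in ileum (log2 3.97), Cldn15, another pore-forming claudin, was lower (-1.20), and Cldn8 was seen in ileum only (220), at least 27.7-fold higher.

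**Figure D3:**
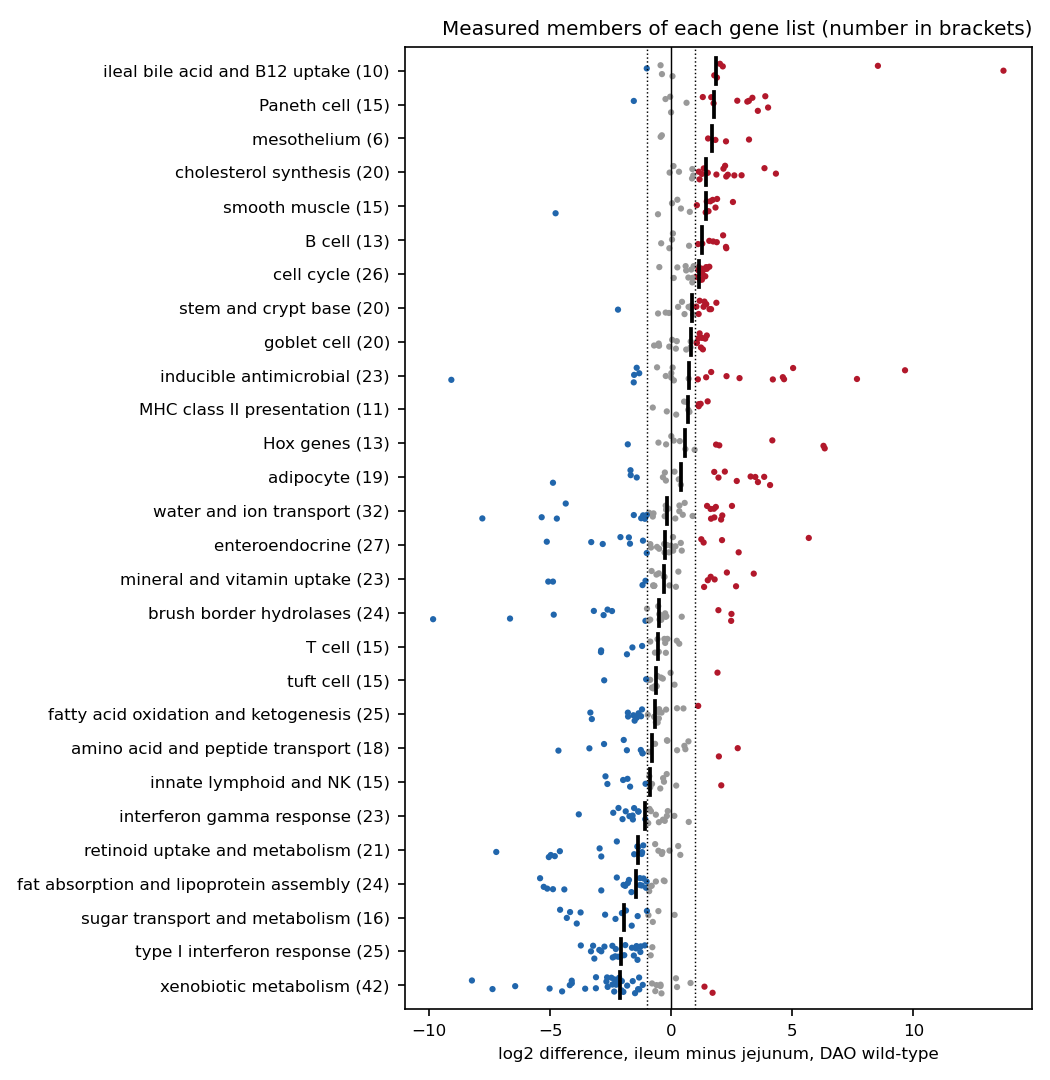
Log2 difference, ileum minus jejunum, in DAO wild-type mice (horizontal axis) of every measured member of 28 gene lists (vertical axis, number of measured members in brackets). Each point is a gene, red at least 2-fold higher in ileum, blue at least 2-fold lower, grey between; the thick dash is the list's median, the dotted lines mark 2-fold, and the medians run from 1.83 for bile acid and B12 uptake to -2.10 for xenobiotic metabolism.

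Transcription factors known for regional identity were among the genes farthest apart. Of 28 on the list 26 were measured, 6 at least 2-fold higher in ileum and 7 lower, with a median of 0.15, and 2 were seen in jejunum only. Gata4 read 1281 in wild-type jejunum and 19.02 in wild-type ileum (1280 and 42.9 in G181R), 67.3-fold lower, and its cofactor Zfpm1 3571 and 329.5 (log2 -3.44). Onecut2 read 4214 and 16.4, 256.7-fold lower, and its relative Onecut1 472.8 in jejunum with no signal well above background in ileum (1.58), at least 72.0-fold lower. Pdx1, a factor of the proximal gut and pancreas, read 211.8 in jejunum and 2.85, not well above background, in ileum, at least 32.3-fold lower.

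Less far apart were the receptor Nr1i3 (CAR, 580 and 57.2, log2 -3.34), Hnf4g (-1.70), Gata6 (-1.22) and the receptor Nr1i2 (PXR, -1.10). The factors higher in ileum included Osr2 (933.8 and 5592, log2 2.58), Foxa1 (2.48), Cdx1 (5377 and 13970, 1.38), Foxa3 (1.06) and Foxa2 (1.01). Several factors that all intestinal epithelium uses were within 2-fold: Cdx2 differed by 0.46, Hnf4a by 0.45, Klf5 by 0.42 and Gata5 by -0.04. Of the others, Klf4, Isx, Elf3, Nr5a2, Prdm1, Maf and Bcl6, lay between -0.73 and 0.86.

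Hox genes encode factors that mark position along the body axis. Of 39 on the array 13 were measured, 5 at least 2-fold higher in ileum and 1 lower, 5 were seen in ileum only, 1 in jejunum only and 20 in neither. The median of 0.59 was 0.14 with normexp, another background correction, and -0.28 with no background filter. The difference widened along the Hoxb cluster from Hoxb2 to Hoxb6. Hoxb2 differed by -0.21, Hoxb3 by 0.36 (with probes from -0.76 to 2.15), Hoxb4 by 1.99, Hoxb5 by 4.18, Hoxb6 by 6.34 and Hoxb7 by 6.29. Hoxb8 and Hoxb9 read 465 and 1368 in wild-type ileum and 2.80 and 2.24, not well above background, in jejunum, at least 58.5-fold and 172.1-fold higher. The Hoxb9 bound lies above the Hoxb6 and Hoxb7 differences. Being lower bounds, the Hoxb8 and Hoxb9 values do not show where the widening ends. Hoxb13 lay on the other side, with 23.2 in jejunum and no signal well above background in ileum.

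Hoxb7 read 26.8 in wild-type jejunum and 2098 in ileum (36.2 and 1439 in G181R), and Hoxb6 11.4 and 920.8. Of the other clusters, Hoxc6 differed by 1.85 (29.5 and 106.5), Hoxa9 by -1.79 (30.6 and 8.85) and Hoxd8 by 0.97, while Hoxa3, Hoxa7 and Hoxc4 lay between -0.53 and 0.59. Hoxd4, Hoxc8 and Hoxc9 were seen in ileum only, at least 4.95-fold, 4.10-fold and 2.24-fold higher.

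**Figure D4:**
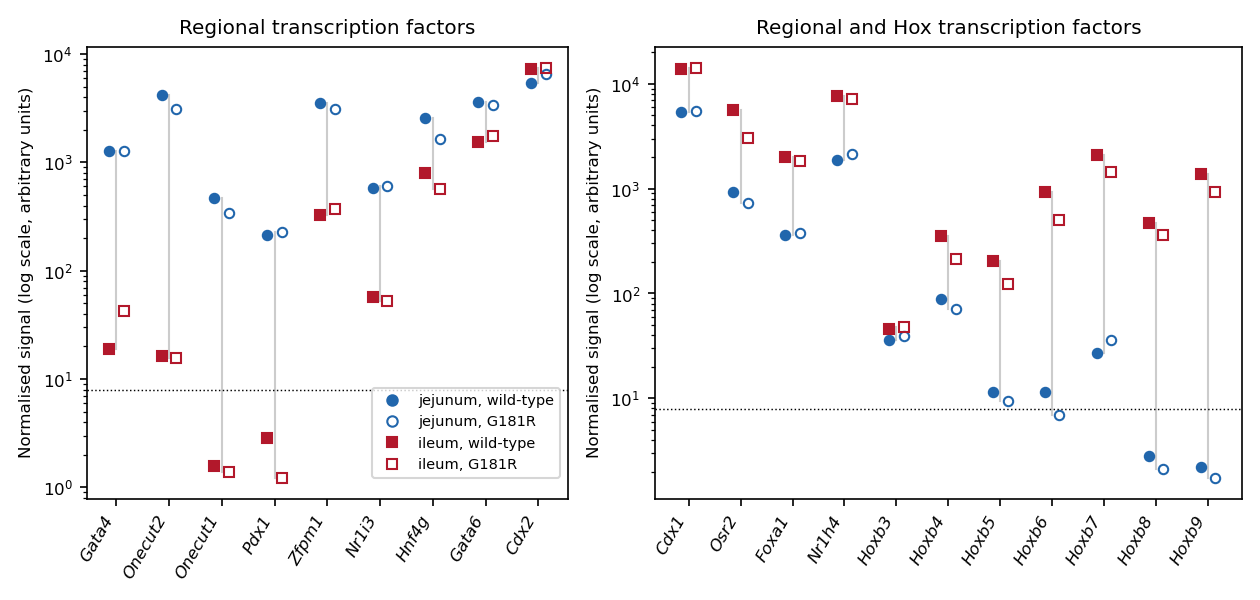
Normalised signal (vertical axes, log scale, arbitrary units) of transcription factors on all 4 arrays; circles are jejunum, squares ileum, filled symbols wild-type and open symbols G181R. The dotted line is the lowest signal well above background on the wild-type jejunum array (7.95); Gata4, Onecut2, Onecut1 and Pdx1 stand higher in jejunum, and the Hoxb genes from Hoxb4 to Hoxb9 higher in ileum, in both genotypes.

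The stretches just before the start of 3 of the genes named above, each 38.4-fold or more apart, are shown as examples. They were picked because they hold letters known as binding motifs of intestinal factors. They are from RefSeq, build GRCm38.p6, 160 bases ending at the base before the start: Slc10a2 at chr8:5105288-5105447 (minus strand), Lct at chr1:128328319-128328478 (minus strand) and Fabp1 at chr6:71199719-71199878 (plus strand). Capitals mark the motif of CDX factors, TTTATNG, in Slc10a2 and Fabp1, and that of GATA factors, AGATAA, in Lct, each on either strand.
Slc10a2: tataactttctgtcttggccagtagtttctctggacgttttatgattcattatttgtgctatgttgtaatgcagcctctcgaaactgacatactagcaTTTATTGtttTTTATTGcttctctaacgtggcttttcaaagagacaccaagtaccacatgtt
Lct: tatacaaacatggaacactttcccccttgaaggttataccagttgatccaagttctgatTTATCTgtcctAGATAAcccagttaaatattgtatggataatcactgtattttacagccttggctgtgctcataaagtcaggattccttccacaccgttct
Fabp1: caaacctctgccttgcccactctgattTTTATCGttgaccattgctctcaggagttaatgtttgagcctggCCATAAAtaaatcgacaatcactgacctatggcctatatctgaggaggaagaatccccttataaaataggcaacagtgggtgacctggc

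The motifs began 62 and 52 bases before the start in Slc10a2, 101 and 90 in Lct, and 133 and 89 in Fabp1. Such short letters are common. In windows of 300 bases (250 before the start and 50 after it), searched on both strands, AGATAA was in 11.2% of all 32851 windows, in 7.64% of those of measured genes, in 12.2% of those of genes at least 4-fold lower in ileum and in 10.4% of those at least 4-fold higher. TTTATNG was in 10.9%, 7.87%, 12.9% and 6.43% of the same sets. The motif of HNF4, CAAAGTCCA, was in 0.475% of all windows, 0.531% of those of measured genes, 3.59% (15 of 418) of those at least 4-fold lower and 0.714% (2 of 280) of those at least 4-fold higher. The FXR inverted repeat, searched in a strict form only, was in 0 of the 10 windows of the bile acid list and in 0.0365% of all windows. Looser forms of this repeat were not searched, so its absence from these windows is not shown. The Fabp6 window holds an imperfect inverted repeat of this kind, which the strict form does not match. The windows of Fabp6, Apoa4, Slc51a and Slc51b held none of these motifs in the forms searched. Motifs were counted separately, so 1 window can hold several, and a match of letters is a description of the sequence.

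Genes of enteroendocrine cells differed in both directions. Of 27 measured genes of the list 5 were at least 2-fold higher in ileum and 8 lower, with a median of -0.27. In such bulk tissue, fewer cells of a type and less RNA per cell cannot be told apart. Gip, the incretin of the proximal gut, read 2080 in wild-type jejunum and 59.1 in ileum (1950 and 54.0 in G181R), 35.2-fold lower. Cck, cholecystokinin, read 7406 and 751.4 (log2 -3.30), and Ghrl, ghrelin, 2123 and 496.8 (-2.10). Pyy, peptide YY, read 20.7 in wild-type jejunum and 1061 in ileum (17.9 and 819.6 in G181R), 51.3-fold higher.

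Nts, neurotensin, read 731.5 and 5047 (log2 2.79), and Gcg, which encodes GLP-1, 638.6 and 2736 (2.10, but 0.05 at its other probe). Sct, secretin, differed by 0.08 and Sst, somatostatin, by -1.01. The pan-endocrine gene Chga differed by -0.83, and Tph1, the enzyme of serotonin synthesis, by -1.75. Tac1, which encodes substance P, was at 1.34 in wild-type and 4.12 in G181R.

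Genes of inducible defence proteins, secreted or not, showed the widest spread of any list, from -9.08 to 9.65. Of 23 measured genes of the inducible antimicrobial list 11 were at least 2-fold higher in ileum and 5 lower. The median of 0.72 was 0.22 with normexp, 0.42 with no background filter and 0.11 among bright genes alone. The serum amyloid genes Saa2 and Saa1, which epithelium makes on contact with bacteria, read 39.9 and 104.7 in wild-type jejunum and 32170 and 21340 in wild-type ileum, 805.9-fold and 203.7-fold higher. In G181R they read 597.1 and 446.8 in jejunum and 96930 and 69950 in ileum. Both were therefore higher in G181R than in wild-type in each tissue, and higher in ileum than in jejunum in each genotype.

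Nos2, the inducible nitric oxide synthase, read 124 and 4064 (log2 5.03), Duoxa2 and Duox2, which together make hydrogen peroxide at the surface, 65.6 and 1658 (4.66) and 26.9 and 493.9 (4.20), and the resistin-like protein Retnlb 33.9 and 828.2 (4.61). Reg1, a lectin-like secreted protein, read 67580 in wild-type jejunum and 125.1 in ileum (53740 and 112.8 in G181R), 540.1-fold lower. Its relatives Reg3g (101800 and 102000) and Reg3b (88120 and 75480) differed by 0.00 and -0.22. The antimicrobial peptide gene Leap2 read 16290 and 226.6 (log2 -6.17).

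Paneth cells, the defensin-secreting cells of the crypt base, had 10 of 15 measured markers at least 2-fold higher in ileum and 1 lower, with a median of 1.75. Ang4, a microbicidal ribonuclease, read 479.9 in wild-type jejunum and 7686 in ileum (668.5 and 5413 in G181R), a log2 difference of 4.001. Pla2g2a, a secreted phospholipase, read 69.2 and 826.4 (log2 3.58), Wnt3, a niche signal for stem cells, 13.7 and 140.3 (3.35), and Mmp7, which processes defensins, 2308 and 15300 (2.73). Of 21 measured alpha-defensins, a family chosen after its values were seen, 8 were at least 2-fold higher and 0 lower, with a median of 0.65. Defa21 was at 3.89 and Defa23 at -0.01, and the Defa21 probe shares 49 of 59 overlapping bases with that of Defa2. The Defa23 probe shares 35 of 35 with that of Defa24, and the Defa26 probe 42 of 47 with that of Defa-ps1. The family members therefore cannot all be read apart. The marker lower in ileum was uroguanylin Guca2b.

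The goblet cell, stem and crypt base, and cell cycle lists leaned the same way by less. The goblet cell list had 9 of 20 genes at least 2-fold higher and 0 lower (median 0.80), with the secretory factors Atoh1 at 1.47 and Spdef at 1.28 and the mucin Muc2 at 0.80. The stem and crypt base list had 9 of 20 higher and 1 lower (median 0.88), with Ascl2 at 1.87, the stem cell receptor Lgr5 at 1.58 (87.6 and 262.3) and Msi1 at -2.20. The cell cycle list had 16 of 26 measured genes higher and 0 lower (median 1.15), among them the kinase Cdk1 (39.5 and 117.7, log2 1.58), Cdc20 (1.47) and Mki67 (1.14). The tuft cell list was at -0.62 (-0.37 with normexp), with 1 of 15 higher and 2 lower.

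Genes of the interferon response were lower in wild-type ileum. All 25 genes of the type I list were measured and below 0, 23 at least 2-fold lower, with a median of -2.09. Usp18, which restrains interferon signalling, read 1849 in wild-type jejunum and 139.3 in wild-type ileum, 13.3-fold lower, and 1135 and 277.7 in G181R. Isg15, a ubiquitin-like protein, read 23910 and 2651 (log2 -3.17) and in G181R 19410 and 4033 (-2.27). Ifit3, which binds viral RNA together with its relatives, read 2069 and 221.5 (-3.22) and in G181R 777.3 and 290.1 (-1.42). In G181R mice the list's median was -0.93, with 12 of 25 at least 2-fold lower.

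The stretches before the start of Isg15, chr4:156200819-156200978 (minus strand), and Ifit3, chr19:34583369-34583528 (plus strand), both GRCm38.p6, are shown because all members lay on one side and the letters known for the interferon response, TTTCNNTTTC, lie in them. Capitals mark those letters on either strand, 3 overlapping copies in Isg15 and 2 copies in Ifit3.
Isg15: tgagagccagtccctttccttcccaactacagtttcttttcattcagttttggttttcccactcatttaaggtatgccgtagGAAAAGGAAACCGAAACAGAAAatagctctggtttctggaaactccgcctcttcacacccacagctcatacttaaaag
Ifit3: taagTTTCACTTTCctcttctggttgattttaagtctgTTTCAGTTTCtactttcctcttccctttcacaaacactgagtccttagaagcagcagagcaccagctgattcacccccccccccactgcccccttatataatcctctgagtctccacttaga

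The copies began 78, 72 and 66 bases before the start in Isg15 and 156 and 122 in Ifit3. This motif was chosen after the values were seen. It was in 11 of the 18 windows of the 17 list genes that matched the promoter table (61.1%), in 3.44% of all windows, in 7.18% of those of genes at least 4-fold lower in ileum and in 2.14% of those at least 4-fold higher. The 11 list genes with the motif in a window differed by -3.22 to -0.85, and the 6 without it by -3.31 to -1.09, so the ranges overlap.

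Of the genes that interferon gamma induces 23 were measured, 12 of them at least 2-fold lower in wild-type ileum and 0 higher, with a median of -1.07. Igtp, an interferon-induced GTPase, read 4828 in jejunum and 343.1 in ileum (log2 -3.82), and 3276 and 1635 in G181R. Irgm2 was at -2.39 in wild-type and -0.01 in G181R, and the chemokine Cxcl10 at -1.72 and 0.59. The list's G181R median was -0.01, with 4 genes at least 2-fold higher and 2 lower. Genes of antigen presentation by MHC class II, which interferon gamma also induces, lay on the other side: 4 of 11 were at least 2-fold higher in wild-type ileum and 0 lower (median 0.71), among them H2-DMb1 (606.2 and 1722, log2 1.51) and Cd74 (3020 and 6646, 1.14).

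Markers of immune cells in the scraped tissue differed in both directions. The B cell list had 8 of 13 measured genes at least 2-fold higher in ileum and 0 lower (median 1.28, or 0.29 with normexp), led by Fcmr (32.5 and 157.2) and Ms4a1 (40.2 and 192.7, log2 2.26, but -0.95 at its other probe). Its summed signal was 3017 in jejunum and 3770 in ileum, and 3010 and 4943 in G181R. T cell markers, several of them shared with innate lymphocytes, had 5 of 15 at least 2-fold lower in ileum and 0 higher (median -0.56, or -0.94 among bright genes alone): Cd3g read 262.4 and 35.4, and Cd8a 76.3 and 10.2. Its summed signal was 6704 in jejunum and 2685 in ileum.

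The innate lymphoid and NK list had 6 of 15 at least 2-fold lower and 1 higher (median -0.87, or -0.34 with normexp and -0.45 with no background filter), and its summed signal was 23160 and 5689. The sum adds probes of unlike brightness, among them Gzma, the granzyme of cytotoxic cells, at 19030 and 2901 (log2 -2.71). In G181R the same sums were 18630 and 4760. The macrophage and dendritic list had 2 of 17 higher and 7 lower (median -0.89). Its summed signal went the other way, at 44150 in jejunum and 75380 in ileum, and 55150 and 82610 in G181R. In wild-type mice 14 of the 17 genes lay below 0, so the higher ileum sum came from the 3 genes above 0. The plasma cell list had 4 of 10 higher and 0 lower (median 0.76). That median was 0.30 to 0.48 with normexp, no background filter or bright genes alone. The part of these immune cell markers in the interferon and MHC class II results was not tested.

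Markers of tissue beneath the epithelium differed as well. The smooth muscle list had 9 of 15 measured genes at least 2-fold higher in wild-type ileum and 1 lower (median 1.42, or 0.75 with normexp), and its summed signal was 21410 in jejunum and 23210 in ileum. Myl9, a myosin light chain, read 1340 and 4764, but 1581 and 719.3 in G181R, and the list's G181R median was -1.05 over 14 genes, with sums of 21230 and 10870. The member lower in ileum was Ckb, a creatine kinase, at -4.77. The adipocyte list had 9 of 19 higher and 4 lower (median 0.40; sums 22370 and 16620): Adipoq, the adipocyte hormone adiponectin, read 19.03 and 272.5 (log2 3.84) and Cfd, adipsin, 236.5 and 2832 (3.58), while Cd36 was lower.

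Of the mesothelium list, markers of the outer lining of the gut, 4 of 6 measured were at least 2-fold higher in ileum and 3 others were seen in ileum only, with sums of 11540 and 32750. They include Krt19, a keratin that epithelium also makes, at 11130 and 31990. Msln, mesothelin, read 11.6 and 107.3, and 57.4 and 57.6 in G181R. The fibroblast list had 2 of 13 higher and 4 lower (median -0.57; sums 9810 and 7444), the endothelial list 2 of 12 and 6 (median -0.96, or -0.57 with normexp), the exocrine pancreas list 3 of 12 and 2 (median 0.00; sums 133900 and 131700, with 9 members on neither array), and the red cell list 0 of 6 and 2. Zg16 and Clps of the pancreas list were measured, and are also on the goblet cell and Paneth cell lists respectively. The pancreas sums are therefore not of pancreas alone. The part of these other tissues in the epithelial results was not tested. The enterocyte list, by comparison, had 1 of 12 higher and 2 lower (median -0.20).

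Genes of D-amino acid and serine metabolism other than Dao were measured too. Of 13 on the array 10 were measured, 4 at least 2-fold higher in ileum and 1, Dao, lower, and in G181R 2 were higher and 2 lower. The median of 0.62 was 0.23 with normexp, 0.13 with no background filter and 0.25 among bright genes alone. Psat1 and Phgdh, enzymes of serine synthesis, read 102.5 and 123.9 in wild-type jejunum and 403.2 and 301.2 in ileum (log2 1.98 and 1.28). The Phgdh probe shares 45 of 51 overlapping bases with that of Gm6756. Slc7a10, a carrier of small neutral amino acids including D-serine, was dim (12.01 and 29.1, log2 1.28), and the hydroxymethyltransferase Shmt1 was at 1.05 (-0.13 at its other probe). Srr, the racemase that makes D-serine, was at -0.79, Sdsl at -0.75, and Psph, Shmt2 and Mthfd2 lay between 0.13 and 0.87. Ddo, the oxidase of acidic D-amino acids, was not well above background on either wild-type array at its brightest probe.

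Some genes among the farthest apart have no place in these lists. The heat shock protein gene Cryab read 67.8 in wild-type jejunum and 12290 in ileum (log2 7.50), and Tmigd1, an adhesion protein of epithelia, 223.3 and 32590 (7.19). Krtap19-1, named for keratin-associated proteins of hair, read 311.1 and 38570 (6.95) and Krtap4-8 248.7 and 23330 (6.55); the Krtap4-8 probe shares 40 of 54 overlapping bases with that of Krtap4-13. Gp1bb (6.62) and Krtap20-2 (6.04) had other probes at 1.57 and -0.10. Further up were Mgat4c, a glycosyltransferase of glycan branches (5.86), and Mal, a protein of apical membrane transport (5.78).

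On the jejunal side were Dnase1, a secreted nuclease (36130 and 188.4, log2 -7.58), the proton channel Otop3 (1174 and 7.75, -7.24) and the lactate carrier Slc5a12 (9950 and 141.3, -6.14). Genes seen on 1 array only included Bex1 (at least 98.2-fold higher in ileum), Nkain2 (45.9-fold), the beta-defensin Defb37 (36.7-fold), Sval1 and the malic enzyme Me3 (29.2-fold). In the other direction were Bbox1, the last enzyme of carnitine synthesis (at least 149.5-fold lower), Cym, chymosin (138.7-fold), Paqr9 (56.1-fold), the lectin Mbl2 (48.7-fold) and Oas1e (48.5-fold).

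The ileum and jejunum of the G181R mice give the same difference on arrays that the wild-type comparison does not use, from the same slide and the same probes. Of 21454 genes measured there, 7.29% were at least 2-fold higher in ileum and 8.74% lower. Of the 1515 genes higher in wild-type ileum and measured in G181R, 1451 (95.8%) had the same sign and 1024 (67.6%) were at least 2-fold higher there, with 12 at least 2-fold lower. Of 1828 lower genes 1790 (97.9%) had the same sign and 1301 (71.2%) were at least 2-fold lower, with 5 at least 2-fold higher. Over all 20398 genes measured on the 4 arrays, 83.9% had the same sign. Among genes 4-fold apart in wild-type, those at least 2-fold apart the same way were 298 of 324 and 441 of 455. Across those 20398 genes, Pearson's r of the differences was 0.886, a description across genes that share slide and probes.

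**Figure D5:**
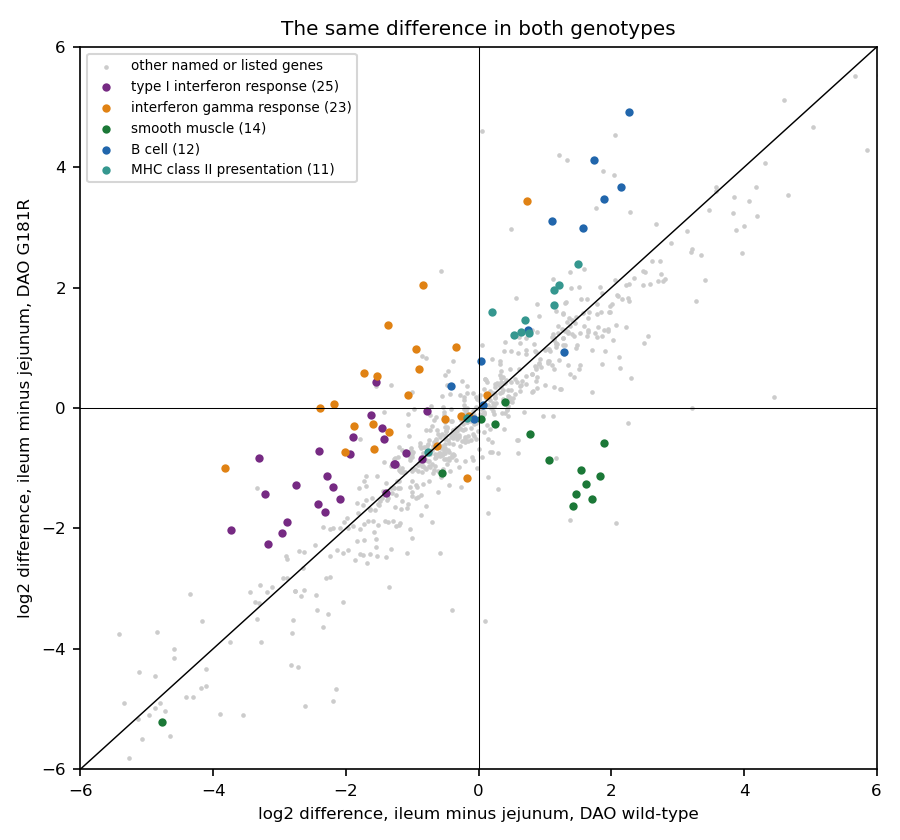
Log2 difference, ileum minus jejunum, in DAO wild-type mice (horizontal axis) and in G181R mice (vertical axis) of 782 named or listed genes measured on all 4 arrays, of which 29 lie outside the plotted range; the diagonal marks equal differences. Interferon genes lie above the diagonal, with list medians of -2.09 and -0.93 (type I) and -1.07 and -0.01 (gamma), and the smooth muscle genes have medians of 1.24 and -1.05.

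Single genes whose difference was unequal in the genotypes are given here. Lrg1, an acute-phase glycoprotein, read 16.9 in wild-type jejunum and 119.3 in wild-type ileum (log2 2.82), but 46.7 and 8608 in G181R (7.53). Plet1, found on the surface of progenitor cells, was at 0.06 and 4.61, and Ly6d at 1.21 and 4.21. Cdc73 was at 4.45 in wild-type and 0.18 in G181R by its brightest probe, and another of its probes was at 0.02 in wild-type. In all, 358 genes were at least 2-fold more positive and 422 at least 2-fold less positive in G181R, and these differences between the genotypes were not tested.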

How the data were processed

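RNA was measured on 1-colour (Cy3) Agilent arrays, 4 on 1 slide, 1 per group. The deposited scanner output gives each spot's intensity, corrected for background and within-array trends by Agilent Feature Extraction 11.5.1.1, per the file headers. It also holds other values, flags of signal well above background, saturation and outliers, per the file headers. The deposited table of log2 values was not used, since many of its probes hold 1 fill value per array.

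Log2 intensity was averaged over a probe's spots without outliers, and scaled by subtracting the 75th percentile of all non-control probes per array. Each gene was read from the probe brightest over the 4 arrays, and counted as measured where both arrays compared had it well above background. The lowest normalised signal well above background was 7.95 in wild-type jejunum and 6.56 in wild-type ileum. Bounds were taken against that signal or the probe's own, whichever was higher. With 1 array per group, the wild-type comparison by itself allows no p-value, and none is given; the number of arrays limits precision. Symbols came through RefSeq (GRCm38.p6) for 32994 probes, and probe coordinates are mm9. Counting was tested on simulated data. Python 3.11.15, numpy 2.4.6, pandas 2.3.3, matplotlib 3.10.9, and R 4.3.3 with limma 3.58.1 (normexp background correction, offset 50) were used.

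The comparison, the gene lists and the rule for named genes were chosen with earlier results of these data known. Named by rule were Dao, the 15 genes most higher and 15 most lower, the 8 largest bounds of each direction, up to 6 members of each list with the largest difference and its 3 brightest, every member of 4 lists (bile acid and B12, regional factors, Hox, D-amino acid), and 6 genes of each sign whose difference differs most between genotypes. Clone names were passed over. Some genes that the rule names are not reported here. Other genes named were chosen after their values were seen. The alternatives tried were normexp, quantile normalisation, other scalings, all probes averaged, no background filter, bright genes alone and outlier spots kept.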

Additional observations from a re-analysis of the deposited data

Results flagged for a closer look

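Among the 20398 genes measured on all 4 arrays, 12 were at least 2-fold higher in wild-type ileum and as much lower in G181R ileum, and 5 the reverse. The 9 of them that are on a gene list or named by rule are given here, and the difference between genotypes was not tested. The smooth muscle list holds 6 of the 9. Their log2 differences, ileum minus jejunum, were 1.83 in wild-type and -1.14 in G181R for Myl9, 1.71 and -1.51 for the intermediate filament gene Synm, and 1.62 and -1.27 for tropomyosin Tpm2. They were 1.54 and -1.02 for the myosin heavy chain Myh11, 1.47 and -1.44 for desmin Des, and 1.42 and -1.64 for Synpo2. In Myh11, Des and Synpo2 other probes gave wild-type differences as low as 0.46, -0.11 and -0.61. The other 3 were Optc, opticin, at 2.07 and -1.90 (22.7 and 95.2 in wild-type, 58.3 and 15.6 in G181R), Cyp3a44 at 1.38 and -1.86 (106 and 29.3 in G181R), and the interferon-induced GTPase Iigp1 at -1.36 and 1.38 (198.1 and 77.3 in wild-type, 186.2 and 486.1 in G181R).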

How the results depend on the processing

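With 1 array per group, no replicate could be left out, and no paired analysis was possible because each group has 1 array. Normexp correction, which pulls dim signals together, left 780 genes at least 2-fold higher and 1011 lower in ileum. Without the background filter there were 2942 higher and 4037 lower, and 85.28% of them kept their sign in G181R mice (96.95% with the filter). Among the 13820 brightest genes alone, a smaller set, 975 were higher. The share of genes past 2-fold that were higher was 44.8%, and 43.6%, 49.0%, 51.0%, 49.8%, 42.2% and 43.4% with normexp, quantile normalisation, the percentile over detected probes, the median gene at 0, no filter and bright genes. Of 272 named genes past 2-fold, 51 were below it with normexp, and 0 changed sign under any setting that measured them. Of 31 lists with a median of at least 0.5 in size, 31 kept its sign under each setting except no filter, where the Hox median was -0.28 in place of 0.59, and bright genes alone, where 28 lists had a value and 28 kept it. Normexp moved 11 of these medians by over 1.5 times: Hox 0.14, inducible antimicrobial 0.22, D-amino acid 0.23, tuft -0.37, smooth muscle 0.75, mesothelium 0.98, endothelial -0.57, B cell 0.29, plasma cell 0.32, innate lymphoid -0.34 and mast cell 0.16. No filter moved 8: Hox -0.28, amino acid transport -0.48, inducible antimicrobial 0.42, D-amino acid 0.13, red cell -0.64, plasma cell 0.48, innate lymphoid -0.45 and mast cell 0.22. Bright genes alone moved 4: inducible antimicrobial 0.11, D-amino acid 0.25, plasma cell 0.30 and T cell -0.94. Quantile normalisation moved 1, brush border hydrolases, to -0.33. The cause of these moves was not tested.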

Other observations

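Other gene groups also differed between wild-type ileum and jejunum. Gasdermins, pore-forming proteins of cell death, were a family picked out after their values were seen: 5 of 8 measured members were at least 2-fold higher in ileum and 0 lower, with a median of 3.20. Gsdmc2 read 58.0 in jejunum and 1254 in ileum (53.5 and 885.5 in G181R), Gsdmc3 276.7 and 4945, and Gsdme 1283 and 12190, while Gsdmd, the member cut by inflammatory caspases, differed by -0.95. The Gsdmc genes are related copies, and how far their probes cross-read was not tested. Of 78 measured ribosomal protein genes 76 lay above 0 (median 0.43) with 0 at least 2-fold apart. A respiratory complex I family was taken by symbol (Ndufa, b, c, s and v), which takes in assembly factors (Ndufaf) as well as subunits. Of its 45 measured genes 40 lay below 0 and 3 were at least 2-fold lower, with 0 higher (median -0.61). Over all 20730 measured genes 9654 lay above 0 and 11076 below. The ribosomal and complex I families were chosen after their values were seen.

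Clock genes were dispersed, with 1 of 15 measured genes at least 2-fold higher in ileum and 4 lower (median -0.29). The repressor Nr1d1 read 168.7 in jejunum and 24.1 in ileum (log2 -2.81), and the output factors Tef and Dbp were at -1.54 and -1.50. Per2 was at 1.54, but at -0.19 on another probe. Among peroxide and thiol genes 2 of 21 were at least 2-fold higher and 4 lower (median -0.45). Over all measured genes the shares were 7.4% higher and 9.13% lower. The peroxidases divided, with Gpx2 at 1.34 (18680 and 47440) and Gpx4 at -1.73 (22200 and 6704), and catalase Cat was at -1.64. The stress chaperones Hspa1b and Hspa1a were at 1.66 and 1.30.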
